A study of Homo sapiens with 5 samples.

Results

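AGAP3, TPGS2, RNASEK, CHPF, PLLP, MKNK2, SUN1, MZT2A and PCSK5 are 9 genes whose mix of transcripts differed between a pair of lung adenocarcinoma cell lines. They were chosen by their isoform usage in these same libraries, that is, by how the reads of a gene were shared among its transcripts, out of 7455 genes that could be tested. The shares therefore describe the choice and carry no test. GENCODE v44 assigns 127 transcripts to the 9 genes, of which 124 are listed in the files. A transcript is described where it had at least 10 reads in at least 2 libraries. That left 44 transcripts, and the other 80 held 243 reads in all. SUN1-212, just inside that limit, had a second-highest count of 11 reads over the libraries, and RNASEK-210, just outside, one of 8.

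NCI-H1975 and HCC827 are established human lines derived from lung adenocarcinoma, a cancer of lung epithelium. RNA of NCI-H1975 carried the sequins mixA and RNA of HCC827 the sequins mixB, which are synthetic spike-in transcripts. A single RNA preparation of each line was combined by mass, and libraries carry the ratio with NCI-H1975 first: 100:0 and 0:100 are pure, and 75:25, 50:50 and 25:75 lie between. Each ratio had 1 library. All 5 libraries went through poly(A) selection, PCR-amplified cDNA synthesis and nanopore sequencing, in which a read can run over most of a transcript. Values compare 2 RNA preparations and not cultures. Intervals cover counting error only. PCR copies without molecular identifiers count as separate reads, so the intervals may be too narrow even for that. They also leave out the uncertainty of assigning reads that fit several transcripts.

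Library totals ran from 2932250 to 4058751 reads. Each of the 6 epithelial markers had at least 140 reads in every library, and their sum ran from 18747 to 42382 reads. Of 5 markers of other cells, 1 had at least 10 reads in every library, the collagen gene COL1A1, which ran from 532 reads in the 100:0 library to 19 in the 0:100 library. PTPRC and ALB had 0 reads in every library, and all 5 together summed to between 20 and 534. The mean length of the annotated transcript behind a read was 2581.0 bases in pure NCI-H1975 and 2179.7 in pure HCC827. The shares were not corrected for length, and its part in them was not tested. A fit of isoform usage with the length trend removed is given in the last section.

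A gene can give several transcripts by starting at another promoter, by joining different exons, by keeping an intron, or by ending at an earlier or later polyadenylation site. The choice can change the protein's end, remove its reading frame, or change only the untranslated part of the message. A transcript with an early stop codon can be degraded by nonsense-mediated decay, and one with a retained intron often makes no full protein.

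Isoform usage was tested in edgeR as a slope along the mass fraction of HCC827 in all 5 libraries. All 9 genes passed an adjusted threshold of 0.05 against 30 of 7455 genes in all, or 0.402%, and nothing is read from that count because the choice used the same contrast. Leaving out the 100:0 library, 2 of 8 testable members passed beside 4 of 7166 genes in all, and leaving out the 75:25 library, 4 of 8 beside 8 of 7008. Leaving out the 0:100 library, 3 of 9 passed beside 7 of 7371, leaving out the 25:75 library, 4 of 9 beside 8 of 7363, and leaving out the 50:50 library, 9 of 9 beside 20 of 7180. For each gene, the leading transcript is the one whose share differed most between the pure libraries. Its difference ran from 4.58 to 75.0 percentage points over the 9 genes with a median of 24.1, where the median of the largest difference over 7367 genes was 6.52. The leading share ran in the order of mixing in 8 of 9 genes, all but MZT2A, where 4.81% of the 7367 genes had such an order. In all 9, the 95% Wilson intervals of the pure libraries were apart, against 5.39% of the 7367 genes. Among all 44 transcripts, 15 ran in order and 17 had such intervals apart, against 2.95% and 2.63% of the 26059 transcripts of those genes. The choice of the genes used these same shares, so nothing is read from these counts.

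**Figure D1:**
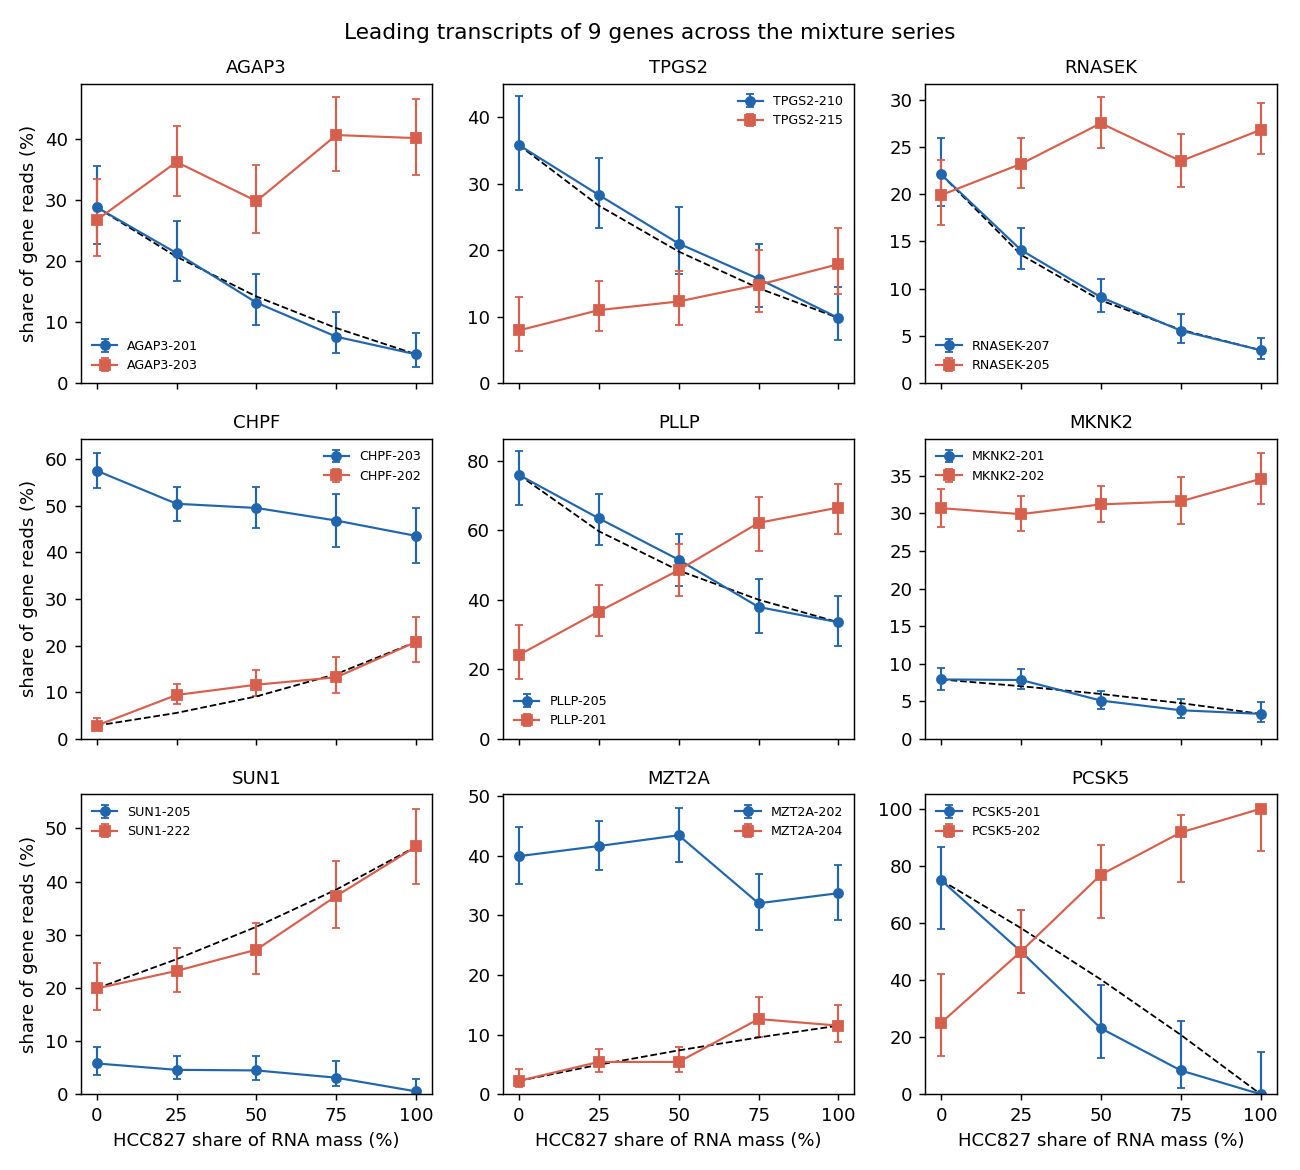
Shares (y axis, percent of the gene's reads) of the transcript that fell most and the one that rose most toward pure HCC827. The x axis is the HCC827 share of RNA mass in percent, with 1 panel per gene and 95% Wilson intervals for counting error. A dashed line gives the share of the leading transcript expected from mixing the pure libraries. PCSK5-201 ran from 75.0% to 0.0%, while MKNK2-201 ran from 7.90% to 3.32%.

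MKNK2, at chr19:2037465-2051244 on the minus strand, encodes a kinase that MAP kinases activate and that phosphorylates the translation factor eIF4E. MKNK2-201 and MKNK2-202 share 12 of 13 introns and part at the last exon, which ends the coding sequence in different places. The longer form carries the tail through which MAP kinases bind, and the shorter one lacks it. Their last coding exons are shown because they are what tells the proteins apart, at chr19:2039613-2039856 and chr19:2037739-2037829 (GRCh38, minus strand), with the stop codon in capitals.
MKNK2-201 last coding exon: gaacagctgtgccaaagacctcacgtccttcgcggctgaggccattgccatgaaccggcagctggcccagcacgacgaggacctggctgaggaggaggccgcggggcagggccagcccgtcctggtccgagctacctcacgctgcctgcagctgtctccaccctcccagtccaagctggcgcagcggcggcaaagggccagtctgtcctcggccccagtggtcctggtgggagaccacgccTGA
MKNK2-202 last coding exon: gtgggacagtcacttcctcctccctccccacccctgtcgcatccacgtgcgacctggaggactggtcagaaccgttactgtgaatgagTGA

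MKNK2-201 held 103, 120, 68, 33 and 25 reads from the 100:0 to the 0:100 library, which were 7.90, 7.83, 5.09, 3.80 and 3.32% of the gene. The difference, 0:100 minus 100:0, was -4.58 points (95% Newcombe interval -6.49 to -2.54), the smallest in size of the 9 genes. MKNK2-202 went from 30.7 to 34.6%, and its intervals overlapped. The coding length is 1395 bases in MKNK2-201 and 1242 in MKNK2-202. Of the stretches of 31 bases in MKNK2-201, 0.533% are in no other transcript shown, because the retained-intron transcript MKNK2-206 holds the same last exon. For MKNK2-202 that percentage is 0.0%. MKNK2-206 had 12.9% of reads in pure NCI-H1975 and 11.0% in pure HCC827, a lesser difference than that of MKNK2-201. MKNK2-211 took 28.6 to 33.1% over the 5 libraries and MKNK2-208, annotated as a target of nonsense-mediated decay, 18.8 to 20.3%. As CPM, a read count scaled to the size of its library (here with TMM factors), MKNK2-201 was 31.0 in pure NCI-H1975 and 9.49 in pure HCC827, a ratio of 0.306. The other transcripts together had a ratio of 0.766.

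AGAP3, at chr7:151085831-151144436 on the plus strand, encodes a GTPase-activating protein for the small GTPase Arf, with a GTPase-like domain of its own. AGAP3-201 starts inside the gene at position 151114678 and ends at 151123638, 20798 bases before AGAP3-203. Its last exon closes the reading frame where AGAP3-202 goes on to another exon. Both are shown (chr7:151122725-151122787 and chr7:151123794-151123886, GRCh38, plus strand) because they mark the short and the long end, with the stop codon in capitals.
AGAP3-201 last coding exon: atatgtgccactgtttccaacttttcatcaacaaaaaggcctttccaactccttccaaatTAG
AGAP3-202 exon that follows: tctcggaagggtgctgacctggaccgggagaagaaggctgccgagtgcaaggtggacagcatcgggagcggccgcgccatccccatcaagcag

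AGAP3-201 held 55, 57, 34, 19 and 11 reads, or 28.8, 21.3, 13.2, 7.63 and 4.74% of the gene, a difference of -24.1 points (95% Newcombe interval -31.2 to -17.1). It was highest in pure NCI-H1975 and lower with each step toward HCC827. The short end is shared with AGAP3-216, and the pair took 37.2, 27.2, 19.0, 9.64 and 8.19%. AGAP3-203, whose start is tagged as incomplete in the annotation, went from 26.7% (95% interval 20.9 to 33.4) to 40.1% (34.0 to 46.5), without running in order. Only 1.73% of its stretches of 31 bases are in no other AGAP3 transcript shown, and how reads that fit several transcripts were split was not tested. AGAP3-205, a coding transcript from the first start site, went from 14.1 to 25.4% in order. AGAP3-202 took 15.7 to 22.9% and the retained-intron transcript AGAP3-212 4.10 to 7.36%. AGAP3-201 was 16.5 CPM in pure NCI-H1975 and 4.17 in pure HCC827, a ratio of 0.252, while the other transcripts together had a ratio of 2.05.

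TPGS2, at chr18:36777647-36829216 on the minus strand, encodes a subunit of the complex that adds glutamate chains to tubulin in microtubules. TPGS2-210 is annotated with 1 intron and an incomplete start, and it ends 8926 bases past TPGS2-215. The last coding exons of 3 transcripts are shown because each belongs to a different 3′ end: TPGS2-210 at chr18:36780147-36780188, TPGS2-215 at chr18:36786822-36787079 and TPGS2-201 at chr18:36796805-36797050 (GRCh38, minus strand). Capitals mark the stop codon.
TPGS2-210 last coding exon: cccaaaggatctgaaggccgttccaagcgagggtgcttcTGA
TPGS2-215 last coding exon: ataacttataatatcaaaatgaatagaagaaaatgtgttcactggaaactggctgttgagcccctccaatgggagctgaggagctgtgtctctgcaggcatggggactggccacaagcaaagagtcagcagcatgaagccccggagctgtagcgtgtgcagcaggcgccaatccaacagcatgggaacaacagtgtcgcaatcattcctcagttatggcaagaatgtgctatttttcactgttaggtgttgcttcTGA
TPGS2-201 last coding exon: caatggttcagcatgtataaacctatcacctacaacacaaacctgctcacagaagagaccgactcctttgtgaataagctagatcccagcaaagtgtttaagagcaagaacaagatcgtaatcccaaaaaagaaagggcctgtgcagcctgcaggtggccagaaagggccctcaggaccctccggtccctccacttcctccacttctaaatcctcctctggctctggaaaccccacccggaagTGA

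TPGS2-210 held 63, 77, 53, 35 and 22 reads, or 35.8, 28.3, 21.0, 15.7 and 9.82%, a difference of -26.0 points (95% Newcombe interval -34.0 to -17.8). Each step toward HCC827 had a lower share. TPGS2-215, with a coding length of 912 bases against 176 annotated in TPGS2-210, held 7.95, 11.0, 12.3, 14.8 and 17.9%. TPGS2-201, which had the highest share of the gene in every library, took 39.0 to 47.1%. The other 4 transcripts, TPGS2-202, TPGS2-218, TPGS2-219 and TPGS2-220, each took between 2.94 and 8.48%.

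Exons of TPGS2-210 overlap those of FHOD3, a formin that assembles actin, on the opposite strand by 741 bases, or 27.7% of its length. FHOD3 was 17.7, 16.6, 13.6, 10.7 and 10.2 CPM from the 100:0 to the 0:100 library, and TPGS2-210 was 18.9, 18.2, 13.9, 12.5 and 8.35. Both were lower with each step, and whether reads of one were counted for the other was not tested. The sources used here do not say whether strand was used in counting, so such reads cannot be told apart. With every transcript that shares exons with another gene left out, 11 of 5705 genes passed for isoform usage, or 0.193%. TPGS2 was tested and not among them, and 5 of the 9 genes were. TPGS2-210 itself was removed there, so that setting cannot decide on its share.

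MZT2A, at chr2:131464900-131492743 on the minus strand, encodes a small protein of the gamma-tubulin ring complex, which starts new microtubules. MZT2A-204 is annotated as a retained-intron transcript and runs 14149 bases past the end of MZT2A-202 to exons that MZT2A-201 lacks. An inner exon of MZT2A-204 (chr2:131472068-131472182) and the last coding exon of MZT2A-201 (chr2:131484061-131484218, stop codon in capitals; GRCh38, minus strand) are shown because each is in 1 of the 2 transcripts.
MZT2A-204 internal exon: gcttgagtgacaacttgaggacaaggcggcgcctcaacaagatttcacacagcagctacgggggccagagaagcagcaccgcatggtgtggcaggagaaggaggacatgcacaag
MZT2A-201 last coding exon: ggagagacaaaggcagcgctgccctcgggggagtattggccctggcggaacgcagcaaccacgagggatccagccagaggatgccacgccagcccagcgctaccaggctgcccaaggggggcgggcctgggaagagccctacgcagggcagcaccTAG

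MZT2A-204 held 9, 29, 25, 48 and 45 reads, or 2.24, 5.41, 5.42, 12.6 and 11.5%, a difference of 9.24 points (95% Newcombe interval 5.82 to 12.9). The 25:75 and 0:100 libraries were the high ones, and the last step broke the order. MZT2A-201, the coding transcript, took 51.2 to 57.9%, and MZT2A-202, which has no coding sequence defined, 32.0 to 43.4%. The level of MZT2A-204 was 2.71 CPM in pure NCI-H1975 and 17.1 in pure HCC827, a ratio of 6.31, and that of the other transcripts had a ratio of 1.12. MZT2B, a near-identical paralog, was 206 CPM in pure NCI-H1975 and 431 in pure HCC827. Of the stretches of 31 bases, 50.1% in MZT2A-201, 41.2% in MZT2A-202 and 22.4% in MZT2A-204 also occur in MZT2B transcripts. Counting transcripts of any other gene, the value of MZT2A-204 is 39.4%, and those of MZT2A-201 and MZT2A-202 stay the same. Reads of these transcripts are thus uncertain where counting could split them.

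SUN1, at chr7:816615-896435 on the plus strand, encodes an inner nuclear membrane protein that joins with nesprins to link the nucleus to the cytoskeleton. SUN1-222 leaves the SUN1 exon that ends at 866067 for an exon of the neighbouring gene GET4 that starts at 886056, and it is annotated as a target of nonsense-mediated decay. SUN1-205, a full coding transcript, joins the same exon to the next SUN1 exon at 869349. The end of the shared exon (chr7:866038-866067) and the start of the next (chr7:886056-886085 in SUN1-222, chr7:869349-869378 in SUN1-205; GRCh38, plus strand) are shown because the transcripts part there, with the downstream exon in capitals.
SUN1-222 junction: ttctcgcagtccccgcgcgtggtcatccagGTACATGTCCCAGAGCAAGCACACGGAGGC
SUN1-205 junction: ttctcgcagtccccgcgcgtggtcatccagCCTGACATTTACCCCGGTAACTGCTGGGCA

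SUN1-222 held 62, 91, 91, 84 and 88 reads, or 19.9, 23.2, 27.2, 37.3 and 46.6%, a difference of 26.6 points (95% Newcombe interval 18.2 to 34.8). It was highest in pure HCC827 and in order throughout. SUN1-205 held 18, 18, 15, 7 and 1 reads, or 5.79 to 0.529%. The other 10 transcripts of SUN1, of which 4 keep an intron, each took between 2.30 and 14.3%. Transcripts annotated as protein-coding together held 54.0% of SUN1 reads in pure NCI-H1975 and 30.2% in pure HCC827. SUN1-222 was 18.6 CPM in pure NCI-H1975 and 33.4 in pure HCC827, and the other transcripts together were 74.9 and 38.3.

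Exons of SUN1-222 overlap GET4, which helps to insert membrane proteins anchored by their tail, on the same strand by 1842 bases, or 61.9% of its length. GET4 was 50.5, 54.2, 54.0, 72.1 and 73.3 CPM, and SUN1-222 was 18.6, 21.5, 23.8, 30.0 and 33.4. Both were higher in the 25:75 and 0:100 libraries than in the other 3. Of the stretches of 31 bases in SUN1-222, 61.6% also occur in GET4 transcripts, and how many of its reads cross the junction was not tested. SUN1 did not pass the isoform threshold once overlapping transcripts were left out. That setting removed SUN1-222 itself, so it cannot decide on the share of SUN1-222, and nothing is read from it.

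RNASEK, at chr17:7012417-7014532 on the plus strand, encodes ribonuclease kappa, a small membrane protein associated with the proton pump V-ATPase. Its first intron has 3 annotated donor sites, at which the first exon ends at 7012757 in RNASEK-204, at 7012761 in RNASEK-202 and at 7012777 in RNASEK-207. The donor of RNASEK-207 lies 16 bases after that of RNASEK-202 and starts with GC, where the other donors have GT. The stretch around them (chr17:7012733-7012797, GRCh38, plus strand) is shown because the leading transcript differs there, with the first pair of intron bases of each donor in capitals.
RNASEK first exon donors: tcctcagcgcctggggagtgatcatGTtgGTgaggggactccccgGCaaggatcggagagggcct

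RNASEK-207 held 113, 142, 94, 49 and 36 reads, or 22.1, 14.1, 9.11, 5.58 and 3.51%, a difference of -18.6 points (95% Newcombe interval -22.5 to -14.9). Each step toward HCC827 had a lower share. RNASEK-205, which keeps the first intron, went from 19.9% (95% interval 16.7 to 23.6) to 26.8% (24.2 to 29.6), with its highest share, 27.5%, in the 50:50 library. RNASEK-202 took 32.9 to 43.5% and RNASEK-204 23.6 to 29.8%. The annotated coding length of RNASEK-207 is 138 bases. Its level was 34.0 CPM in pure NCI-H1975 and 13.7 in pure HCC827, while the other transcripts together went from 120 to 376. With TMM factors, RNASEK was thus the gene with the largest ratio of its level between the pure libraries, at 2.53. It was the only one of the 9 at or beyond 2-fold on that scale. By library totals RNASEK was at 1.9, and CHPF, at 0.401, was the one beyond 2-fold.

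The readthrough gene RNASEK-C17orf49 shares 579 exonic bases with RNASEK-207, or 97.3% of its length, on the same strand. It was 148, 215, 264, 318 and 406 CPM, so it was higher with each step toward HCC827 while RNASEK-207 was lower. Of 4 of its transcripts with at least 10 reads in 2 libraries, 0 have a first exon that ends at the donor of RNASEK-207. RNASEK-C17orf49-203, which uses the donor of RNASEK-202, went from 186 to 391 reads, and RNASEK-C17orf49-202, which uses that of RNASEK-204, from 159 to 361. Only 5.13% of the stretches of 31 bases in RNASEK-207 are in no other RNASEK transcript shown.

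PLLP, at chr16:57248547-57284672 on the minus strand, encodes plasmolipin, a proteolipid of myelin and of epithelial membranes. PLLP-205 and PLLP-201 share 2 introns and differ in the last exon, which in PLLP-205 is long and lies further along the gene. PLLP-201 is the reference transcript, and PLLP-205 is tagged in the annotation as not supported in this organism. Their last coding exons (chr16:57256010-57256063 and chr16:57256913-57257029, GRCh38, minus strand) are shown because they end the proteins differently, with the stop codon in capitals.
PLLP-205 last coding exon: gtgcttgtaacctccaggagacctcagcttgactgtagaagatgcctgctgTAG
PLLP-201 last coding exon: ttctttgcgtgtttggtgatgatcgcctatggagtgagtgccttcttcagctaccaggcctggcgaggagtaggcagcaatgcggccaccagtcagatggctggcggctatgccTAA

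PLLP-205 held 85, 104, 85, 55 and 55 reads, or 75.9, 63.4, 51.5, 37.9 and 33.5%, and PLLP-201 held the rest, 27, 60, 80, 90 and 109 reads. The difference of PLLP-205 was -42.4 points (95% Newcombe interval -52.1 to -30.9). The more abundant transcript was PLLP-205 in the first 3 libraries and PLLP-201 in the 25:75 and 0:100 libraries. In CPM, PLLP-205 had a ratio of 0.817 between the pure libraries and PLLP-201 one of 5.1. The annotated length is 7578 bases in PLLP-205 and 1497 in PLLP-201, and the mean length over the gene's reads went from 6112 to 3536 bases.

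Exons of PLLP-205 overlap ARL2BP, which binds the small GTPase ARL2, on the opposite strand by 1653 bases, or 21.8% of its length. ARL2BP was 21.4, 28.4, 21.7, 17.5 and 23.2 CPM, and PLLP-205 was 25.6, 24.6, 22.3, 19.6 and 20.9. Neither ran in order, and both were lowest in the 25:75 library. Without overlapping transcripts, PLLP and RNASEK had fewer than 2 transcripts left and could not be tested. In the annotation, the leading transcript shares at least 50 exonic bases with another gene in 4 of the 9 genes, against 24.0% of 7367 genes.

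**Figure D2:**
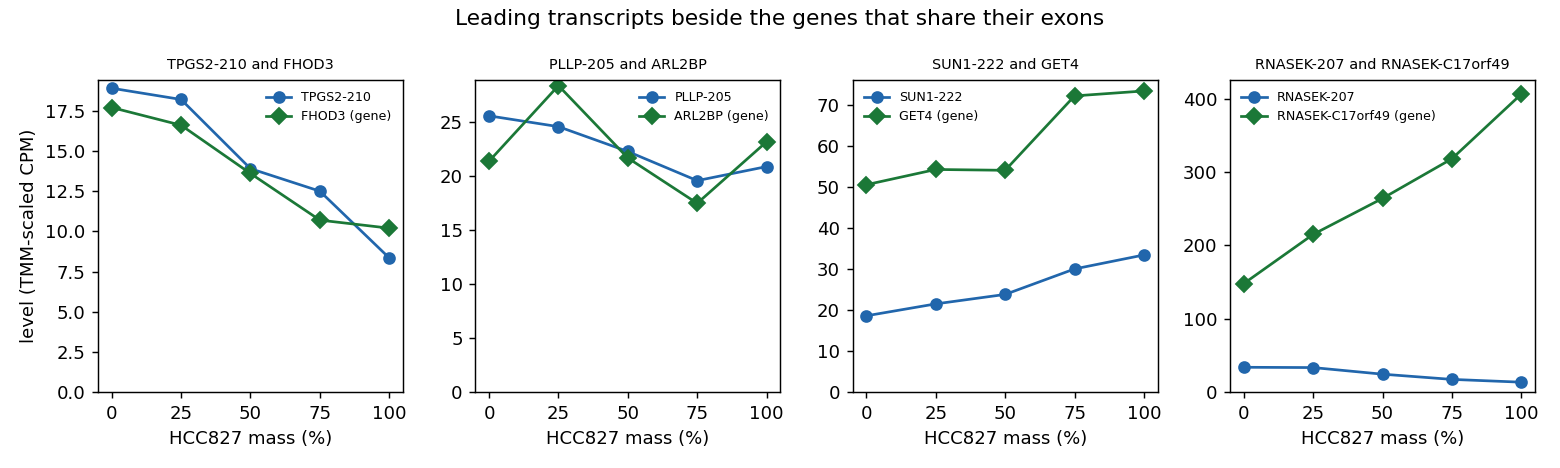
Level of a leading transcript and of the gene whose exons it overlaps, in TMM-scaled CPM (y axis, from 0), against the HCC827 share of RNA mass (x axis, percent). TPGS2-210 and FHOD3 both went down, SUN1-222 and GET4 were both higher in the 25:75 and 0:100 libraries, and RNASEK-207 and RNASEK-C17orf49 went opposite ways.

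PCSK5, at chr9:75890644-76362975 on the plus strand, encodes a proprotein convertase, which cuts precursor proteins in the secretory pathway. PCSK5-202 shares its first 13 introns with PCSK5-201, then reads on into the next intron and ends 20327 bases before it. The end of the shared exon with the start of that intron (chr9:76175100-76175189) and the exon that PCSK5-201 uses next (chr9:76179596-76179698) are shown because the transcripts part there (GRCh38, plus strand). Capitals mark the first pair of bases of the intron.
PCSK5 end of the shared exon and the retained intron: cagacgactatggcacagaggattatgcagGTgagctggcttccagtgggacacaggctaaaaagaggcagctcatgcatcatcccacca
PCSK5-201 next exon: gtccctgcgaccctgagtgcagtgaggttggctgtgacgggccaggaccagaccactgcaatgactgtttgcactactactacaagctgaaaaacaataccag

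PCSK5-201 held 24, 21, 9, 2 and 0 reads, or 75.0, 50.0, 23.1, 8.33 and 0.0%, and PCSK5-202 held 8, 21, 30, 22 and 22 reads. The difference of PCSK5-201 was -75.0 points (95% Newcombe interval -86.7 to -52.3), the largest of the 9 genes and the one with the fewest reads. A count of 0 in pure HCC827 was taken to allow 3 reads, that is a share of 13.6%, where the 95% Wilson interval reached 14.9%. At 3 reads the CPM there would be 6.34-fold lower than in pure NCI-H1975. That ratio takes the 24 reads of pure NCI-H1975 without counting error, so it is not a lower limit. All 22 reads of the transcripts shown in pure HCC827 were assigned to the retained-intron transcript, which has no coding sequence annotated. The level of PCSK5 was 10.2, 10.4, 10.7, 9.63 and 8.73 CPM, the lowest of the 9 genes.

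CHPF, at chr2:219538954-219543809 on the minus strand, encodes the chondroitin polymerizing factor, which helps to extend chondroitin sulfate chains. CHPF-202 keeps the start of an intron that CHPF-203 removes and ends at 219541460, 2088 bases before CHPF-203 does. CHPF-202 is tagged as an inferred model. The exon end and the kept intron start (chr2:219541607-219541645, GRCh38, minus strand) are shown because only CHPF-202 of the pair reads through it, up to its stop codon, with the first pair of intron bases in capitals.
CHPF intron start kept in CHPF-202: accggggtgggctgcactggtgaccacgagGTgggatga

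CHPF-202 held 18, 69, 58, 39 and 56 reads, or 2.83, 9.40, 11.6, 13.2 and 20.8%, a difference of 18.0 points (95% Newcombe interval 13.3 to 23.3). It was lowest in pure NCI-H1975 and in order throughout. CHPF-203 went the other way, from 57.5% (95% interval 53.7 to 61.3) to 43.5% (37.7 to 49.5), while CHPF-201 took 35.7 to 40.2%. In CPM, CHPF-202 went from 5.41 to 21.3, a ratio of 3.93, and the other transcripts together from 186 to 80.8, a ratio of 0.435. CHPF-201 shares 147 exonic bases with TMEM198 on the opposite strand, which had 26 reads in all. For CHPF-202 and CHPF-203 the files give lengths of 1079 and 2634 bases where GENCODE v44 has 1044 and 2210, so the exons described here may not be those of the authors' models. MKNK2-201 and PCSK5-201 also differ in length, at 3774 against 3785 and 5756 against 5788 bases.

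**Figure D3:**
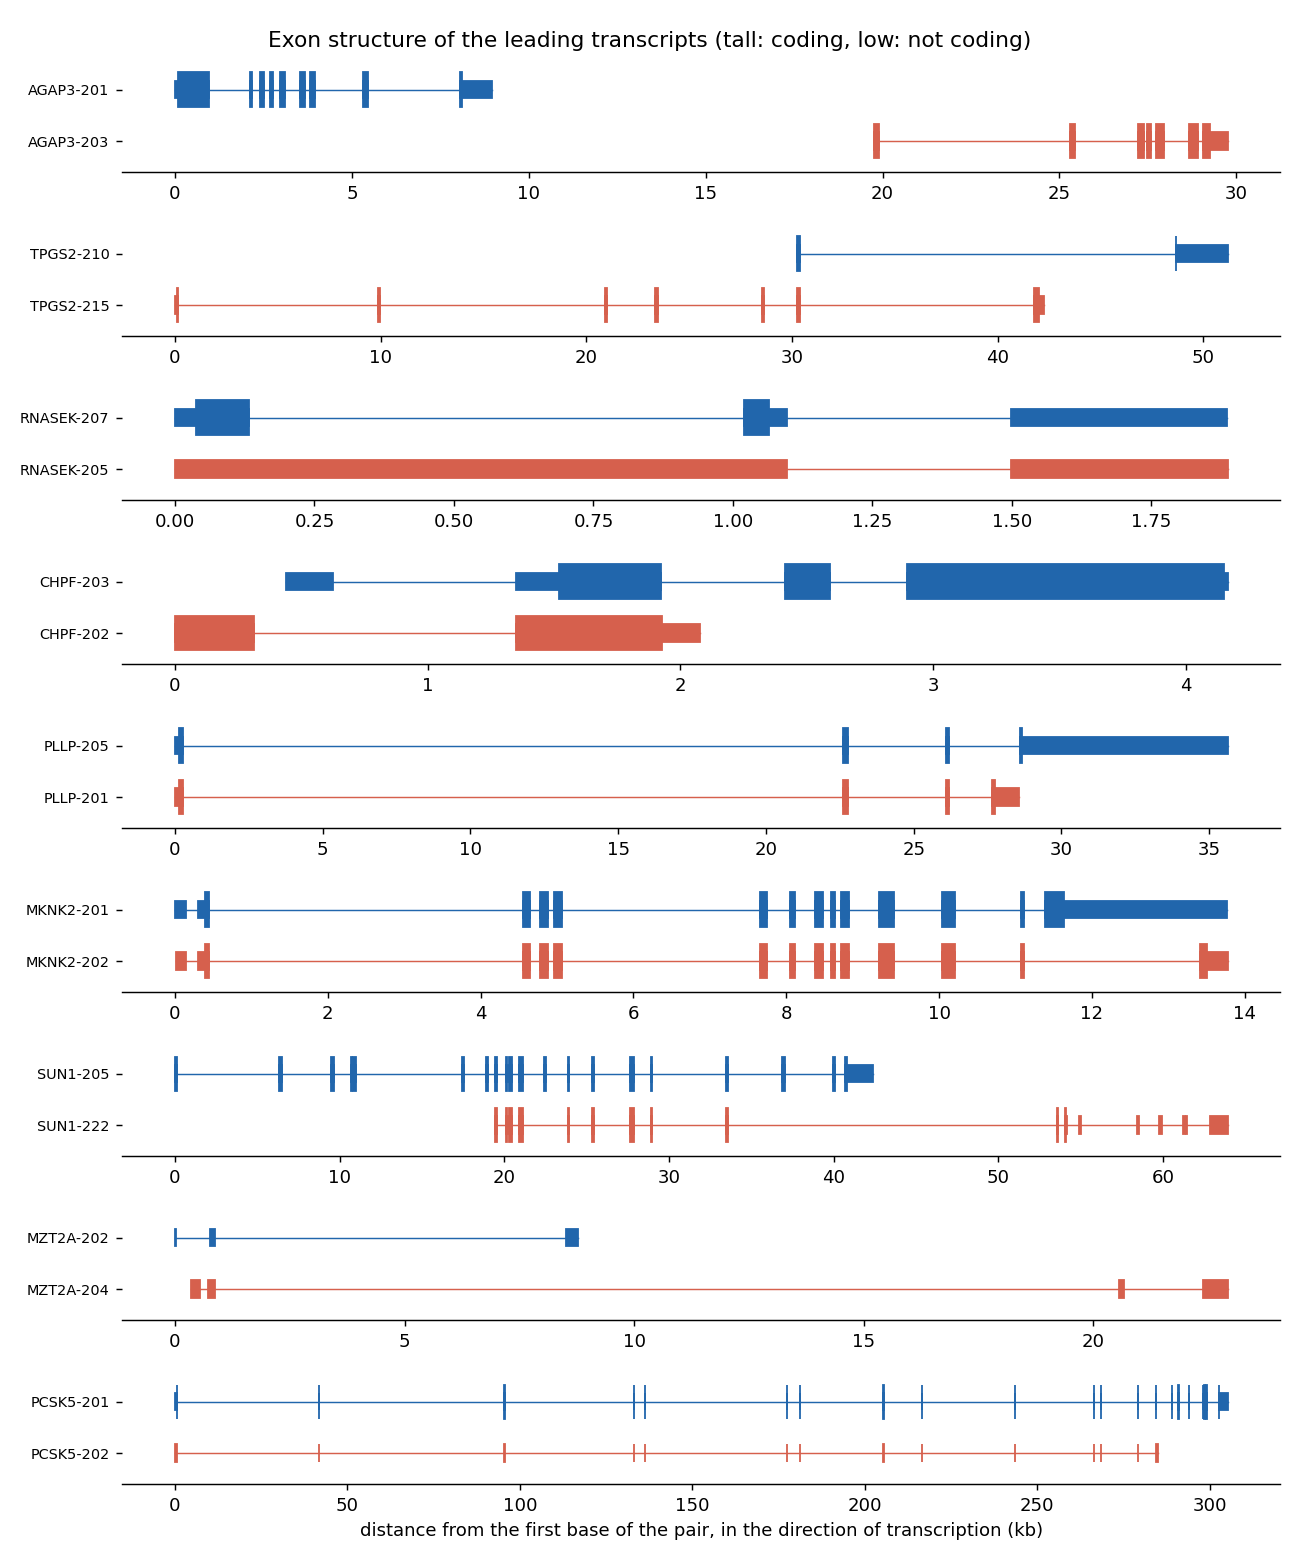
Exons (boxes, with coding parts tall) and introns (lines) of the transcript whose share was lower (blue) and the one whose share was higher (red) in pure HCC827, against distance along the gene in the direction of transcription (x axis, kilobases). The pairs of 7 of the 9 genes end more than 100 bases apart, and MKNK2 and RNASEK end together.

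The transcripts of a pair ended more than 100 bases apart at the 3′ side in 7 of 9 genes, against 40.1% of 7367 genes for which the same pair was taken. At the 5′ side 5 of 9 pairs started more than 100 bases apart, against 57.2%. The transcript with the lower share in HCC827 was the longer of the pair in 7 of 9 genes, against 47.7% of all. It was protein-coding in 8 of 9 genes, and its counterpart was so in 5. A retained intron marked that counterpart in 3 genes, RNASEK, MZT2A and PCSK5. The mean annotated length over a gene's reads was lower in pure HCC827 in 7 of 9 genes, alongside the lower mean of the whole library. For transcript type and for this mean length no share over all genes was taken, so nothing is read from those counts.

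**Figure D4:**
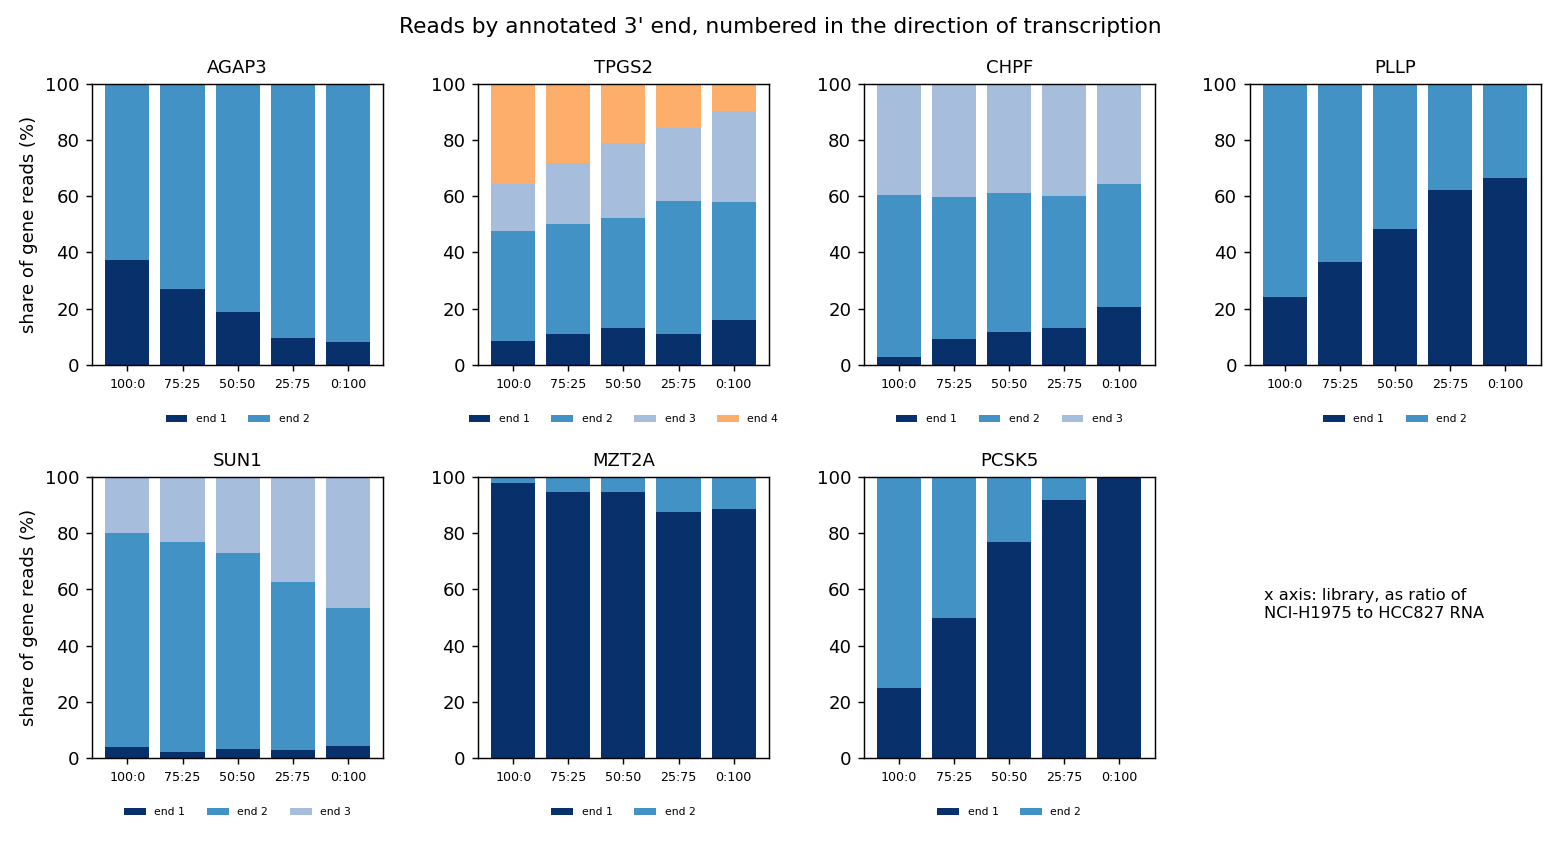
Share of a gene's reads by annotated 3′ end (y axis, percent, from 0 to 100) in each library (x axis, NCI-H1975:HCC827 ratio), with ends numbered along the direction of transcription. The first end of AGAP3 went from 37.2% to 8.19%, and the last end of TPGS2 from 35.8% to 9.82%.

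Ends on an annotated 3′ side were read for the signals that polyadenylation uses. The letters AATAAA or ATTAAA, on the transcript's strand, stood in the last 50 bases of 36 of the 44 transcripts, against 72.1% of 31107 transcripts. MZT2A-204, PCSK5-202, CHPF-202 and CHPF-203 were among those without. For CHPF-202 and CHPF-203 the deposited length differs from that of GENCODE v44, so the ends behind their counts may lie elsewhere. A run rich in A after the end, taken as at least 12 A in the next 20 bases, from which oligo(dT) can prime, was found at 0 of the 44 ends, against 1.96% of all. Sequences were read from GRCh38 by the exons of GENCODE v44.

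Gene levels were also compared between the pure libraries. The ratio of TMM-scaled CPM in the 0:100 library to that in the 100:0 library was 1.47 for AGAP3, 1.63 for TPGS2, 2.53 for RNASEK, 0.534 for CHPF, 1.85 for PLLP, 0.729 for MKNK2, 0.764 for SUN1, 1.23 for MZT2A and 0.854 for PCSK5. The gene-level slope passed an adjusted threshold of 0.05 in 7 of 9 genes, against 6172 of 13492, or 45.7% (4068 without the 0:100 library). It was positive in 4 (AGAP3, TPGS2, RNASEK and PLLP; 23.5% of all genes) and negative in 3 (CHPF, MKNK2 and SUN1; 22.3%). Scaling by library totals moved the median slope of all genes from -0.035 to -0.45 and their split from 3166 positive and 3006 negative to 1795 and 5147. By library totals the level ratio of MZT2A turned to 0.925, that of RNASEK was 1.9 and that of CHPF 0.401. On that scale 2 members had a positive slope past the threshold and 3 a negative one.

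Levels of the leading transcript and of the rest went opposite ways in 7 genes. Choosing the genes by share favoured this, and no share over all genes was taken, so nothing is read from the count. The directions carry no interval, and the ratio of PLLP-205, counted as lower, was 0.817. Leading transcripts with a lower level in pure HCC827 beside a higher level of the rest were those of AGAP3, TPGS2, RNASEK, PLLP and PCSK5. In CHPF and SUN1 the leading transcript was the higher one in HCC827 and the rest were lower. Both were lower in MKNK2. In MZT2A both were higher, but by library totals the ratio of the other transcripts turned from 1.12 to 0.839, while no other direction turned. On this scale the ratio of the leading transcript ran from 0.252 (AGAP3-201) to 6.31 (MZT2A-204), leaving out PCSK5-201 with its 0 reads.

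**Figure D5:**
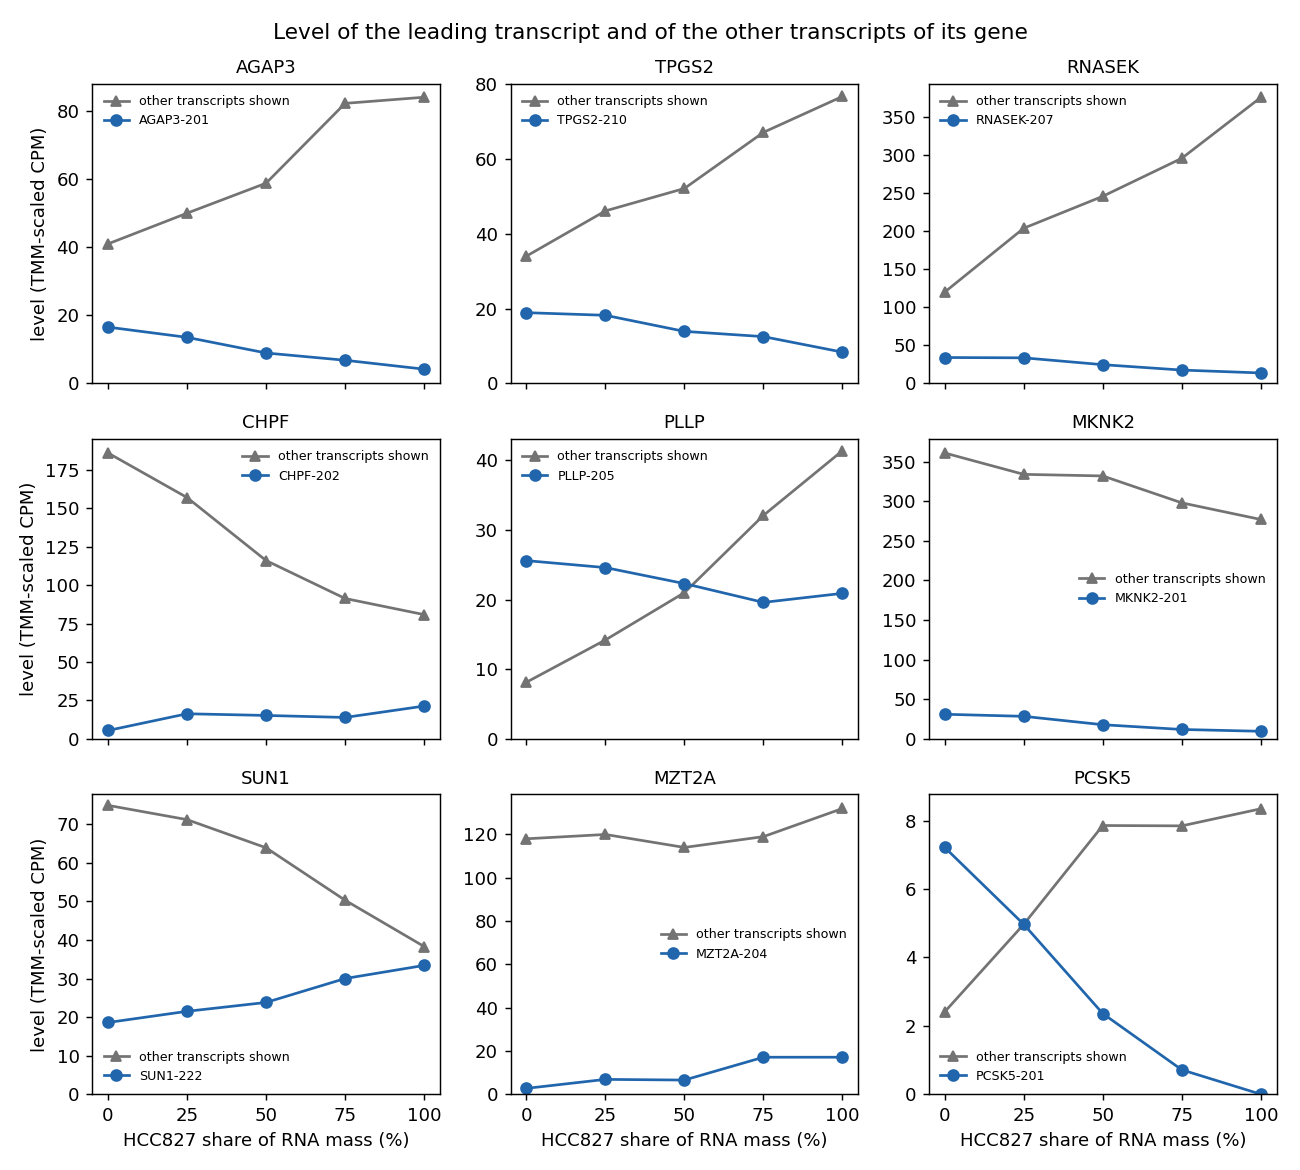
Level of the leading transcript and of the other transcripts shown of its gene, in TMM-scaled CPM (y axis, from 0, a scale per panel), against the HCC827 share of RNA mass (x axis, percent). In PLLP and PCSK5 the lines cross, and in MKNK2 both are lower in pure HCC827.

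Mixed libraries were set against the share expected from mixing the pure libraries at the mass fraction with their gene levels. The 95% Wilson interval held the expectation for 23 of 27 leading shares in the 3 inner libraries. Of the other 4, CHPF-202 lay above it in the 75:25 library (9.40% against 5.55%) and the 50:50 library (11.6% against 9.09%). MZT2A-204 lay above it in the 25:75 library (12.6% against 9.52%), and PCSK5-201 below it in the 50:50 library (23.1% against 40.2%). Without PCSK5, the largest gap was 4.33 points, in SUN1-222. These 27 shares reuse the pure libraries that chose the genes and are described with no test.

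Partner and paralog genes of the 9 were taken from a list of 42, of which 38 were tested for a gene-level slope with edgeR's quasi-likelihood test and Benjamini-Hochberg adjustment. Of these, 11 rose and 6 fell toward HCC827, and 21 did not pass, against 45.7% of all genes that passed. Their median slope was -0.03, as over all genes. For isoform usage, 19 could be tested and 1 passed, LMNA, against 0.402% of all genes. Under library totals 9 rose and 16 fell.

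Chondroitin synthesis genes, the partners of CHPF, had 3 of 4 tested members that fell and 0 that rose, against 22.3% and 23.5% of all genes. CHSY1, which builds the chain with CHPF, fell by 2.34 ± 0.38 on the log2 scale (SE over 5 libraries, adjusted p = 0.00032), and its level was 22.3, 18.0, 14.7, 6.78 and 3.42 CPM. CHPF2 fell by 0.91, and CSGALNACT2, which starts the chain, fell by 2.08. Gamma-tubulin ring genes, the partners of MZT2A, had 3 of 9 that rose, the paralog MZT2B, MZT1 and TUBG1 (slopes 1.03, 1.09 and 0.73), and 1 that fell, TUBGCP2 (-0.56), beside the same 23.5% and 22.3%. In the MNK pathway the paralog kinase MKNK1 (2.06) and its activator MAPK3 (0.87) rose.

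LINC complex genes, the partners of SUN1, had 2 of 5 that rose, the nesprin SYNE1 (2.52) and emerin, EMD (1.08), and 0 that fell, against 23.5% and 22.3% of all genes. LMNA, which encodes the A-type lamins, passed for isoform usage (edgeR Simes test, adjusted p = 0.0366). That call was lost in 7 of 14 alternatives, among them each library left out, with adjusted p-values from 1.38e-05 to 1.0 over the 14. Its largest share difference was that of LMNA-205, which held 43.9, 39.7, 34.4, 31.4 and 24.5% of the gene. LMNA-216 went from 25.1 to 36.4%. V-ATPase genes, set beside RNASEK, had 2 of 6 that rose, ATP6V0B (1.49) and ATP6V0D1 (0.88), and 1 that fell, ATP6AP2 (-1.48), against those same shares. In the AGAP family AGAP2 rose, at 2.80 ± 0.56 (SE over 5 libraries, edgeR adjusted p = 0.00132), from 3 to 29 reads, and AGAP1 did not pass. Of the polyglutamylase genes 0 of 3 passed, and of the MARVEL proteolipids 0 of 1.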

How the data were processed

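Long-read cDNA libraries of NCI-H1975 and HCC827 RNA in 5 mixtures were analysed from 1 table per library. The tables deposited by the authors hold estimated counts of reads per transcript, not scaled, with a transcript length. minimap2 2.24, Salmon 1.9.0 and GRCh38 are named in the submitters' processing notes, and neither the annotation release nor the split of reads that fit several transcripts is given in the sources used here. In the 100:0 library 2 values were not whole and were rounded, and 161 identifiers listed a second time were summed. GENCODE v44 gave gene, type and exons, and it matched at least 98.496% of human reads. Of the 124 transcripts of the 9 genes, 119 have the same length in both.

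The 9 genes, the partner lists and the marker lists were chosen with earlier results of these data known. Shares are reads of a transcript among the transcripts shown of its gene, with 95% Wilson intervals, and differences with Newcombe intervals. CPM used TMM factors from gene sums. Isoform usage (diffSpliceDGE with Simes p-values) and gene slopes were fitted on the HCC827 mass fraction with edgeR 4.0.16 in R 4.3.3, over all features with at least 10 reads in 2 libraries, with Benjamini-Hochberg adjustment. Alternatives used limma 3.58.1, DESeq2 1.42.0, other scaling and filters, and each library left out. Tested on simulated data with 200 genes changed 4-fold at a dispersion of 0.01, isoform usage recovered 75 of 200 with 2 false calls over 7126 genes, and the gene slope 179 of 200 with 4 over 13155.

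Named transcripts were those with the largest drop and the largest gain in share per gene, with all others shown accounted for. Overlapping genes and paralogs were named where they held reads, and partner genes where they passed, of which some are not reported here. AGAP1, transcripts of RNASEK-C17orf49 and transcripts of LMNA were named after their values were seen.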

Additional observations from a re-analysis of the deposited data

How the results depend on the processing

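No paired analysis was possible because each ratio had 1 library. Isoform usage gave 30 calls, with 64 by the gene-level F test, 67 with the length trend removed and 11 without transcripts that share exons with another gene. The last 2 settings were chosen after seeing the data. All 9 genes passed under the F test, with the length trend removed, and under limma-voom (42 calls in all), DESeq2 size factors (31), library totals (31), first copies of identifiers (30) and the 1-read filter (34). With 10 reads in all 5 libraries 6 passed of 8 tested, beside 21 of 5197 genes. Without exon-sharing transcripts 5 passed of 7 tested (AGAP3, CHPF, MKNK2, MZT2A and PCSK5). TPGS2 and SUN1 were tested there without their leading transcripts, so their lack of a call is not read. With 1 library left out, calls ran from 4 to 20 over all genes and from 2 to 9 among the 9. Only AGAP3 and RNASEK passed without the 100:0 library, AGAP3, RNASEK and MZT2A without the 0:100 library, and AGAP3, TPGS2, RNASEK and CHPF without the 75:25 or the 25:75 library, while all 9 passed without the 50:50 library. Gene slopes gave 6172 calls, 4068 to 5860 with 1 library left out, and 4791 to 6942 under the other settings. Partner genes past the threshold were 17, and 14 to 25 elsewhere.

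Shares kept their sign in all 83 alternatives that gave a value, and 5 moved beyond counting error. RNASEK-207 moved to -22.8 points over protein-coding transcripts and to -14.1 on a line fitted without the 100:0 library. CHPF-202 moved to 27.7 without exon-sharing transcripts, MKNK2-201 to -6.80 over protein-coding transcripts, and PCSK5-201 to -90.8 on a line without the 0:100 library. Over protein-coding transcripts or without exon-sharing ones, a share is taken over fewer transcripts of the gene, so those values have another base. Why the fitted lines moved was not tested. The 83 alternatives reuse the shares that chose the genes, so nothing is read from the count of kept signs. Leaving out exon-sharing transcripts gave no value for TPGS2, RNASEK, PLLP and SUN1. Counting only protein-coding transcripts gave none for SUN1, MZT2A and PCSK5. There the leading transcript was left out or stood alone. First copies of identifiers gave the main value in every gene. A line without the middle library had the same value as the line over all libraries. Inner shares whose interval held the expectation were 23 of 27 with a mixing fraction estimated from reads or with library totals, and 21 of 24 with genes of at least 100 reads in every library. Depth limits PCSK5 most, with 22 to 42 reads per library.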
